A study of Mus musculus with 16 samples.

Results

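The comparison described here is that of cigarette smoke against vehicle in GFP+ cells sorted from the olfactory mucosa of S100a5-tauGFP mice, in which the fluorescent protein reports the neuronal gene S100a5. It rests on 8 of the 16 arrays of the study, chosen by their titles: 4 arrays of smoke-exposed pools (the titles call them Odor) and 4 of vehicle pools, for which the stimulus was filtered air. Every array of both groups carries the same reporter, and the RNA of each came from a pool of 3 mice. The 24 mice of the study were of both sexes and 7 to 12 weeks old, and the sex ratio of a pool was not given in the labels. The mice sat singly in clean air chambers for 40 h under an air flow of 3.1 L/min, and from 26 h onward they received a pulse of 10 s every 20 min. The other 8 arrays hold the GFP- cells of the same tissue and enter here only to estimate the spread and to test whether a difference was unequal between the 2 sorted fractions. The design text of the series names the odorant bourgeonal, whereas its title and all sample labels name cigarette smoke. The labels are followed here, and the identity of the stimulus rests on them. The dose and composition of the smoke were not given in the sources used here.

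Each olfactory sensory neuron expresses 1 receptor gene out of a very large family, and all neurons that chose the same receptor share its odorant tuning. Odorant binding raises cAMP through the olfactory G protein and adenylyl cyclase 3, which opens a cyclic nucleotide-gated channel. S100a5, a small calcium-binding protein, is known as a gene whose transcript follows odorant-driven activity in these neurons, so sorting on its reporter gathers neurons that were recently active. The arrays report the abundance of a transcript in a whole pool of sorted cells. A higher value for a receptor can come from more of its neurons passing the gate or from more RNA in each, and these cannot be told apart. Values are log2 array values, and a difference of 1 is a factor of 2. Values of 1 gene are compared between arrays, and levels of different genes are not compared.

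The sorted cells carried the markers of mature olfactory neurons. Omp, the abundant marker of mature olfactory sensory neurons, read 18.3 on all 4 smoke arrays and 18.2, 18.2, 18.2 and 18.3 on the vehicle arrays, a difference of 0.04 ± 0.08 (SE; adjusted p = 0.999). S100a5 read 17.1, 16.8, 17.1 and 17.0 after smoke and 16.4, 16.5, 16.4 and 16.5 after vehicle. All 4 smoke arrays lay above all vehicle arrays. The difference of 0.56 ± 0.14 did not pass the test over all genes (adjusted p = 0.364), while the two-sided exact permutation test of this gene alone gave p = 0.0286, the smallest that 4 arrays against 4 allow. S100a5 is also the gene on whose reporter the cells were sorted. Array medians ran from 7.87 to 7.96 after smoke and from 7.89 to 7.95 after vehicle, and arrays of 1 group correlated at 0.992 to 0.994 across genes. Values of the GFP+ arrays reach 18.6, so the most abundant transcripts may lie where the scale compresses differences. As a guide to dim signal, the level under which 95% of 319 vomeronasal receptor genes lie was taken on each array. These genes belong to another sense organ, and that level ran from 6.41 to 6.78 on the GFP+ arrays.

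Smoke changed few transcripts past the test, and nearly all were olfactory receptors that rose. Of 19505 genes, 21 had a Benjamini-Hochberg adjusted p of at most 0.05 in limma, which is 0.108% of those tested. Higher after smoke were 20 (0.103%) and lower was 1 (0.00513%). The risers were 15 of 1080 odorant receptors, the trace amine-associated receptors Taar2, Taar7d and Taar7f, and the non-receptor genes Pir and Gm3411. The gene that fell was the odorant receptor Olfr1152. In all 21 the smoke and vehicle arrays did not overlap, a separation that 1.66% of all genes showed upward and 1.34% downward. At an unadjusted p under 0.05, 513 genes were higher (2.63%) and 423 lower (2.17%).

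**Figure D1:**
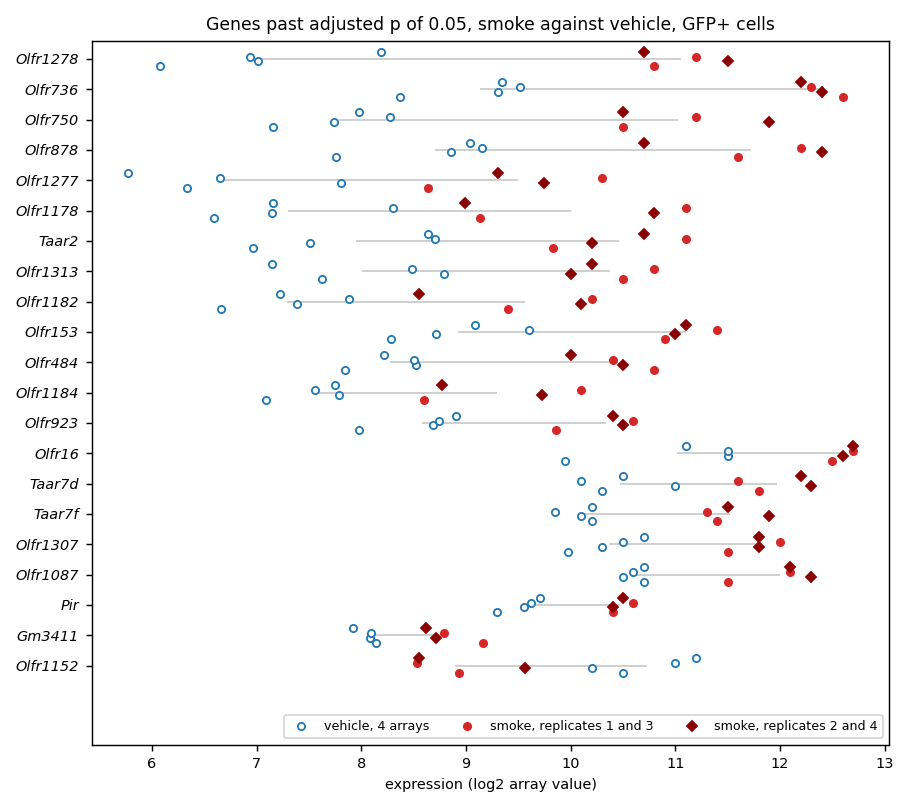
Array values (x axis, log2) of the 21 genes past an adjusted p of 0.05, ordered by difference. Open circles are the 4 vehicle arrays, filled circles smoke replicates 1 and 3, diamonds smoke replicates 2 and 4, and grey lines join the group means. Olfr1278 shows the widest gap, and Olfr1152 is the only gene whose smoke arrays lie below its vehicle arrays.

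The steepest rise was that of Olfr1278, an odorant receptor gene of chromosome 2. Its smoke arrays read 10.8, 11.5, 11.2 and 10.7, against 6.08, 7.01, 6.94 and 8.19 after vehicle. The difference was 3.97 ± 0.32 (SE, 4 arrays per group; adjusted p = 1.78e-05), or 15.7-fold. Vehicle replicate 1 lay at or below the vomeronasal level, and raising it to that level left a difference of 3.88. Its neighbour Olfr1277 read 8.64, 9.75, 10.3 and 9.31 after smoke and 6.33, 7.81, 6.65 and 5.77 after vehicle. Here 2 vehicle arrays were at or below the vomeronasal level, and the difference of 2.85 ± 0.40 (adjusted p = 0.00598) became 2.63 against it. So the vehicle level of this pair was partly at the dim end of the scale.

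Olfr736 and Olfr750, both on chromosome 14, rose by similar amounts to each other. Olfr736 read 12.6, 12.4, 12.3 and 12.2 after smoke, within a span narrower than that of its vehicle arrays at 8.37, 9.31, 9.52 and 9.34 (difference 3.24 ± 0.29, adjusted p = 4.84e-05). Olfr750 read 10.5, 11.9, 11.2 and 10.5 against 7.16, 7.74, 8.27 and 7.98 (difference 3.23 ± 0.32, adjusted p = 0.000111). Olfr878 on chromosome 9 read 11.6, 12.4, 12.2 and 10.7 against 7.76, 8.86, 9.15 and 9.04, a difference of 3.03 ± 0.32 (adjusted p = 0.000219). For each of the 3 the lowest smoke array exceeded the highest vehicle array by more than 1 log2 unit.

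The other odorant receptors that rose did so by 1.39 to 2.69. Olfr1178 had the largest of these differences but a wide spread, with smoke arrays at 9.13, 10.8, 11.1 and 8.99 and vehicle arrays at 6.59, 7.15, 8.30 and 7.16 (adjusted p = 0.0131). Olfr1313 read 10.5, 10.0, 10.8 and 10.2 against 7.62, 8.79, 8.48 and 7.15 (difference 2.38 ± 0.33, adjusted p = 0.00598). Olfr484 on chromosome 7 rose by 2.15 ± 0.29 (adjusted p = 0.00438), and Olfr923 on chromosome 9 by 1.74 ± 0.25 (adjusted p = 0.00685). Olfr1307 read 11.5, 11.8, 12.0 and 11.8 against 9.97, 10.3, 10.5 and 10.7, a difference of 1.41 ± 0.20 (adjusted p = 0.00665). Olfr16, also known as MOR23, read 12.5, 12.6, 12.7 and 12.7 after smoke and 9.95, 11.5, 11.5 and 11.1 after vehicle. Its difference of 1.63 ± 0.30 passed at an adjusted p of 0.0493.

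Trace amine-associated receptors are the second receptor family of the main olfactory epithelium and are tuned mostly to volatile amines. Of 15 measured, 3 passed the test, all upward, beside 0.103% of all genes and 15 of 1080 odorant receptors passing upward. The median difference of the 15 trace amine-associated receptors was -0.04. Taar2 read 9.83, 10.2, 11.1 and 10.7 after smoke and 6.96, 7.51, 8.70 and 8.64 after vehicle (difference 2.51 ± 0.38, adjusted p = 0.0089). Taar7f read 11.4, 11.9, 11.3 and 11.5 against 10.2, 10.1, 9.85 and 10.2 (1.46 ± 0.19, adjusted p = 0.00432). Taar7d read 11.8, 12.3, 11.6 and 12.2 against 10.3, 11.0, 10.1 and 10.5 (1.53 ± 0.24, adjusted p = 0.00976). The Taar7 genes are close relatives, so their probes may share signal, which was not tested. Their neighbours Taar7b and Taar7e each differed by -0.19 (adjusted p = 0.999). Taar4 had the lowest difference of the family, -0.89 ± 0.29 (adjusted p = 0.701).

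Olfr1152 was lower on every smoke array: 8.93, 9.56, 8.53 and 8.55, against 10.5, 10.2, 11.0 and 11.2 after vehicle. The difference was -1.83 ± 0.32 (adjusted p = 0.0348). Olfr24 had the next smallest p among odorant receptors in the downward direction and did not pass, with 12.2, 12.8, 12.9 and 13.4 after smoke and 13.7, 13.9, 13.8 and 13.8 after vehicle (difference -0.94 ± 0.19, adjusted p = 0.0827). Its groups did not overlap. Just outside the threshold on the upward side were Olfr1090 at 1.32 ± 0.25 (adjusted p = 0.0647) and Olfr875 at 1.82 ± 0.35 (adjusted p = 0.066). Olfr769 had a difference of 2.38 ± 0.47, as large as that of Olfr1313, but its vehicle arrays ranged from 6.72 to 9.60 and it did not pass (adjusted p = 0.0827).

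Of the 21 calls, 12 held with each of the 8 GFP+ arrays left out in turn: those of Olfr1277, Olfr1278, Olfr1307, Olfr1313, Olfr484, Olfr736, Olfr750, Olfr878, Olfr923, Taar2, Taar7f and Pir. Without smoke replicate 2 the adjusted p of Olfr1087 was 0.0515 and that of Taar7d 0.0565. The call of Gm3411 ended without vehicle replicate 4 (adjusted p = 0.0653). Olfr1184 lost its call without smoke replicate 2 or vehicle replicate 1 (adjusted p up to 0.071), and Olfr1178 without smoke replicate 2 or vehicle replicate 1, 2 or 4 (up to 0.071). Leaving out any single array other than smoke replicate 4 and vehicle replicate 3 ended the call of Olfr1182 (up to 0.15). The same held for Olfr1152 with any array but smoke replicate 2 and vehicle replicate 2 (up to 0.155), and for Olfr16 with any but vehicle replicates 2 and 3 (up to 0.162). For Olfr153 any but vehicle replicate 3 ended it (up to 0.171). None of the 21 changed sign, which was fixed in advance because their smoke and vehicle arrays did not overlap.

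Over the whole family the receptors centred near 0. The median difference over 1080 odorant receptors was -0.05, and 481 (44.5%) were above 0, beside 48.9% of all genes. At an unadjusted p under 0.05, 110 odorant receptors were higher and 83 lower, beside 2.63% and 2.17% of all genes. The groups did not overlap for 60 upward and 36 downward, beside 1.66% and 1.34% of all genes. These counts exceeded the shares of all genes in both directions. The 319 vomeronasal receptors had a median of 0.02, with 8 higher and 7 lower at that p, close to the shares of all genes.

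Olfactory receptor genes lie in clusters, and neighbouring genes are often close relatives in sequence. Runs of receptor genes were formed in annotation order, a run ending where more than 10 other genes intervened, and the 33 runs with at least 5 measured members hold 1065 receptors. Receptors past the test lay in 7 of these runs, and 26 runs held none. Of the 19 receptors called in either direction, 18 lie in the described runs and Olfr750 lies outside them. Run medians were small, from -0.30 for Olfr1336 to Olfr1350 on chromosome 7 to 0.19 for Olfr310 to Olfr292, also on chromosome 7, with 23 below 0 and 9 above.

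**Figure D2:**
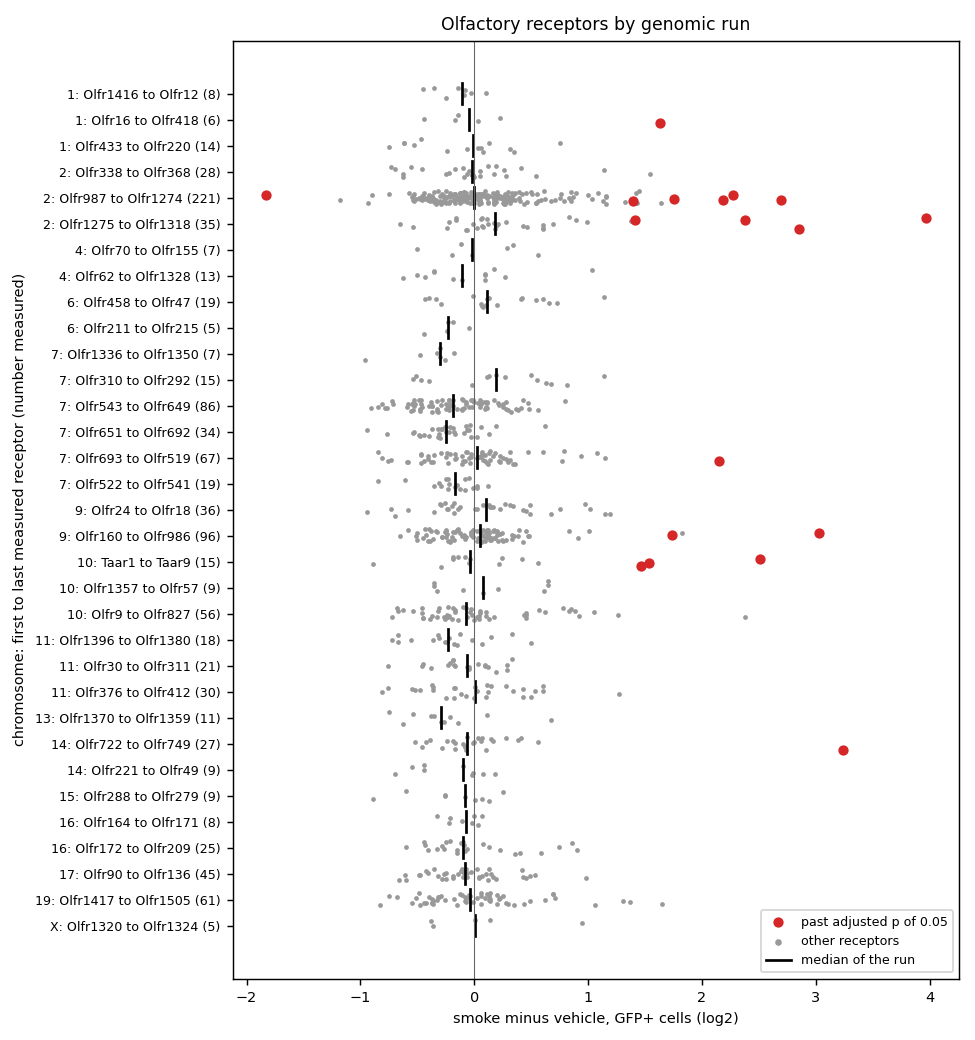
Smoke minus vehicle difference (x axis, log2) of each receptor, 1 row for each of 33 genomic runs, named by chromosome and first and last measured gene with the number measured. Red points passed an adjusted p of 0.05, grey points did not, and black bars are run medians. The medians stay between -0.30 and 0.19, while single receptors reach 3.97.

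The 2 runs of chromosome 2 that follow each other from Olfr987 to Olfr1318 hold 9 of the 18 receptors that rose, and 256 measured genes, 23.7% of the number of measured odorant receptors. The larger one, Olfr987 to Olfr1274, has 221 measured members with a median of 0.00, and 5 of them rose and 1 fell past the test. At an unadjusted p under 0.05, 29 of its members were higher and 7 lower, beside 2.63% and 2.17% of all genes. The count of 7 lower is near that share. The next run, Olfr1275 to Olfr1318, has 35 measured members. Its median was 0.18, 26 members (74.3%) were above 0, and 11 were higher and 2 lower at the unadjusted p. It holds Olfr1277, Olfr1278, Olfr1307 and Olfr1313. Within it Olfr1275 stood lowest, at -0.65.

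**Figure D3:**
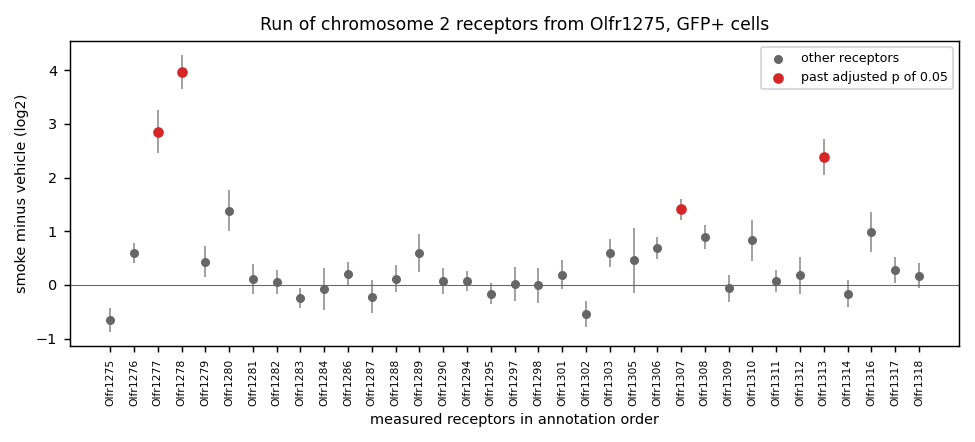
Smoke minus vehicle difference with its SE (y axis, log2) for the 35 measured receptors of the chromosome 2 run from Olfr1275 to Olfr1318, in annotation order. The 4 red points passed an adjusted p of 0.05, with Olfr1277 and Olfr1278 side by side at 2.85 and 3.97 and Olfr1307 and Olfr1313 apart from them at 1.41 and 2.38.

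Most genomic neighbours of the called receptors did not pass the test themselves. The share that passed was still not below that of all odorant receptors, of which 15 of 1080 passed upward and 1 downward. Of 18 called receptors with a measured neighbour in their run, only Olfr1277 and Olfr1278 had one that passed too. The 31 neighbours that did not pass had a median difference of 0.11, and 16 were above 0. They ranged from -1.18 ± 0.41 for Olfr1153, next to Olfr1152, to 0.91 ± 0.25 for Olfr881, next to Olfr878. On either side of Olfr1307, Olfr1306 and Olfr1308 differed by 0.69 and 0.89 (adjusted p = 0.592 and 0.371). Olfr735 and Olfr738, on either side of Olfr736, differed by -0.06 and 0.15, and Olfr483 and Olfr485 around Olfr484 by 0.14 and -0.06. So a rise of over 3 units could stand between genes within 0.2 of no difference.

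The 2 runs of chromosome 7 from Olfr543 to Olfr649 and from Olfr651 to Olfr692 cover the region known for class I receptors, the branch related to fish receptors. Their 120 measured members had a median of -0.21 and 34 were above 0 (28.3%). None passed the test in either direction. At an unadjusted p under 0.05, which 2.63% of all genes passed upward and 2.17% downward, 1 was higher and 13 were lower. The other 960 odorant receptors had a median of -0.03 with 447 above 0 (46.6%), and 109 of them were higher and 70 lower at that p. Medians of the 120 genes on each array, each gene centred on its own mean, were -0.37, -0.09, 0.35 and -0.16 after smoke and 0.09, -0.06, 0.05 and 0.26 after vehicle. The groups overlapped, and smoke replicate 3 was the highest of all 8 arrays.

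Other runs differed in how many members leaned each way without any passing the test. In Olfr458 to Olfr47 on chromosome 6, 6 of 19 members were higher at the unadjusted p and none lower, beside 2.63% and 2.17% of all genes. In the same run the groups did not overlap for 1 member upward and 2 downward. In Olfr1417 to Olfr1505 on chromosome 19, 8 of 61 were higher and 2 lower at the unadjusted p. The 8 higher members included Olfr1495, with 8.58, 10.3, 10.3 and 9.0 after smoke against 7.75, 8.09, 7.84 and 7.93 (difference 1.65 ± 0.35, adjusted p = 0.113). In Olfr1396 to Olfr1380 on chromosome 11, 1 of 18 was higher and 5 were lower. In the run Olfr90 to Olfr136 on chromosome 17, 1 of 45 was higher and 2 were lower, counts that cannot be told from the shares of all genes.

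Outside the receptor families, 2 of 18078 genes passed the test, and differences ran from -0.88 to 1.04. At an unadjusted p under 0.05, 391 were higher and 332 lower. These counts did not exceed the shares of all genes, 2.63% and 2.17%. Of the 391 and 332, 193 and 144 lay at or below the vomeronasal level on all 8 arrays. These are 49.4% and 43.4%, against 33.3% of all genes outside the families. Among the 15 genes of smallest p in each direction, 9 were at that dim level in each, such as Gpc5, Fgl1 and Hspb8 upward and Llcfc1 and AW112010 downward.

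Pir encodes pirin, an iron-binding nuclear protein. It read 10.4, 10.4, 10.6 and 10.5 after smoke and 9.30, 9.55, 9.62 and 9.71 after vehicle. The difference was 0.94 ± 0.14 (adjusted p = 0.0089), or 1.92-fold. Gm3411, a predicted gene of chromosome 14, read 9.16, 8.71, 8.79 and 8.62 after smoke and 8.14, 8.08, 8.09 and 7.92 after vehicle (difference 0.76 ± 0.12, adjusted p = 0.0146). For both genes the groups were separate, and all 8 arrays lay above the vomeronasal level.

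Of the remaining genes above the dim level in the upward group, Rassf2, which encodes a Ras association domain protein, read 10.1, 9.78, 9.88 and 9.77 against 9.11, 9.18, 9.48 and 9.11 (difference 0.67, adjusted p = 0.123). Pgd, an NADPH-producing enzyme of the pentose phosphate pathway, read 13.3, 13.3, 13.4 and 13.2 against 12.6, 12.7, 12.7 and 12.7 (0.61 ± 0.13, adjusted p = 0.135). Nqo1, a quinone reductase, read 16.1, 16.1, 16.3 and 16.3 against 15.7, 15.7, 15.4 and 15.9 (0.56, adjusted p = 0.21). The groups did not overlap for these 3 genes, yet none passed over all genes.

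Downward, Rims3, which encodes a protein of the presynaptic release site, read 12.3, 12.2, 12.1 and 12.0 after smoke and 12.8, 12.7, 13.1 and 12.5 after vehicle (difference -0.63 ± 0.13, adjusted p = 0.0976). All smoke arrays lay below all vehicle arrays. Dhx37, an RNA helicase gene, differed by -0.53 ± 0.14 (adjusted p = 0.401), and Podxl, which encodes podocalyxin, by -0.47 ± 0.13 (adjusted p = 0.477). Coro2b and Hinfp differed by -0.42 and -0.41 (adjusted p = 0.524 for both). All 4 smoke arrays of Coro2b lay at or below the vomeronasal level, and against that level its difference was -0.16.

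**Figure D4:**
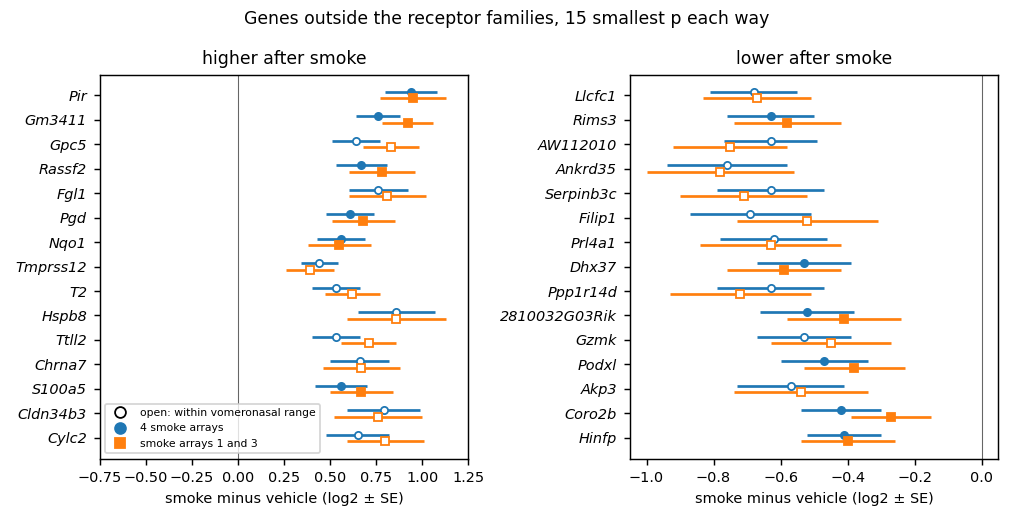
Smoke minus vehicle difference with its SE (x axis, log2) for the 15 genes outside the receptor families with the smallest p in each direction. Circles use 4 smoke arrays and squares only smoke replicates 1 and 3, and open symbols are genes at or below the vomeronasal level on all 8 arrays. All 30 genes keep their side of 0, and 9 in each panel are open.

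NRF2 is a transcription factor that drives detoxifying and antioxidant genes when its inhibitor KEAP1 is modified by electrophiles or oxidants, and it binds the antioxidant response element. Of a list of 28 of its known targets, 26 were measured. None passed the test over all genes. At an unadjusted p under 0.05, 8 were higher and none lower, beside 2.63% and 2.17% of all genes. The groups did not overlap for 4 upward and none downward, beside 1.66% and 1.34% of all genes. The median was 0.06, with 21 of 26 above 0, beside a median of -0.00 and 48.9% above 0 over all genes. That lean was not particular to this list. Genes with proteasome subunit symbols had a median of 0.08, with 34 of 39 above 0. Besides Pgd and Nqo1, the NADPH-producing malic enzyme Me1 read 10.1, 10.2, 10.2 and 10.0 against 9.83, 9.28, 9.32 and 9.79 (0.59 ± 0.16, adjusted p = 0.424). Thioredoxin reductase Txnrd1 read 13.8, 13.9, 13.9 and 13.6 against 13.4, 13.4, 13.5 and 13.4 (0.34 ± 0.09, adjusted p = 0.457). Heme oxygenase Hmox1 read 12.92, 12.88, 12.95 and 12.61 against 13.04, 12.41, 13.03 and 12.87, a difference of 0.00 ± 0.14. The catalytic subunit of glutathione synthesis, Gclc, differed by 0.36 ± 0.13 (adjusted p = 0.864).

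Windows at annotated start sites of Pir and of 3 listed targets are shown because they hold the core letters of the antioxidant response element. Windows run from 250 bases before to 50 after a RefSeq start site (GRCm38.p6), and capitals mark TGACNNNGC on either strand.
Pir, chrX:164269181-164269480 (+ strand): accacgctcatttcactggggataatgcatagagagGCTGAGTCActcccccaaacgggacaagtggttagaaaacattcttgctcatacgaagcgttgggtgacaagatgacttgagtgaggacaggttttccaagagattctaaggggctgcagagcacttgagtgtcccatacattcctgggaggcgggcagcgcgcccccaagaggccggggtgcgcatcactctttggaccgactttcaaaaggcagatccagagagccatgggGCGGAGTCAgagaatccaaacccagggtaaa
Me1, chr9:86695865-86696164 (- strand): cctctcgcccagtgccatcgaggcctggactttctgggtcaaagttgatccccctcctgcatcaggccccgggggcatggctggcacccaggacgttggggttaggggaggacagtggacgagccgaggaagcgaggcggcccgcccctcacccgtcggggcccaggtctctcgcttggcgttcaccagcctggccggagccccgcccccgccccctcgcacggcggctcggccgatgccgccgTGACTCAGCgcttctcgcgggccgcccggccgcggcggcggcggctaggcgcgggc
Txnrd1, chr10:82858956-82859255 (+ strand): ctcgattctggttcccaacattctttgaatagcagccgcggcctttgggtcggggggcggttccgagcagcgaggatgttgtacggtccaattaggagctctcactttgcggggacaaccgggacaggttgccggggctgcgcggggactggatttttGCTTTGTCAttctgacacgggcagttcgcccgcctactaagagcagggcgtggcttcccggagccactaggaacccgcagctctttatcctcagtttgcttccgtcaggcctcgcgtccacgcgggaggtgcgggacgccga
Pgd, chr4:149166033-149166332 (- strand): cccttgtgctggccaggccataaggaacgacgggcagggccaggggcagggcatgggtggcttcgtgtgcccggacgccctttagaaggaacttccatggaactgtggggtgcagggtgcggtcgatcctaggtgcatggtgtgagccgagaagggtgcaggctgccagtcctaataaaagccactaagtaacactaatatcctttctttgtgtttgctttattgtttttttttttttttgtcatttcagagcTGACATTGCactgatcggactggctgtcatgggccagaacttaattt
Pir has 2 matches, both on the strand opposite to the gene, starting at -214 and 19 relative to its start site. Me1 has 1 at -6 and Txnrd1 1 at -92. The Pgd window belongs to its second listed start, which lies downstream of its other start, and the window of that other start has none. Whether the second start of Pgd acts as a promoter was not tested. The other listed starts of Me1 and Txnrd1, and the window of Nqo1, hold no match either. Of all 32851 promoter windows 12.4% hold the motif, and of 925 odorant receptor windows 7.14%, while 7 of the 27 windows found for NRF2 targets do. The windows of Olfr1278 and Olfr1277 hold none. A match is a description of the letters and no measure of binding.

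Genes whose transcripts follow neuronal activity were mixed. Of 5 measured on the list of genes raised by activity in these neurons, none passed over all genes. At an unadjusted p under 0.05, 3 of the 5 were higher, beside 2.63% of all genes. They include S100a5, on whose reporter the cells were sorted. Besides S100a5 these were Pcp4l1, a calmodulin-binding peptide gene, at 15.59, 15.11, 15.45 and 14.76 against 15.04, 14.97, 14.74 and 14.49 (0.42 ± 0.17), and Sema7a, a membrane semaphorin, at 14.3, 14.0, 14.2 and 14.3 against 13.6, 13.9, 13.6 and 13.9 (0.47 ± 0.13, adjusted p = 0.537). The adhesion gene Kirrel2 differed by -0.60 ± 0.51 and Lrrc3b by -0.09 ± 0.31. For Kirrel2, smoke replicate 4 read 11.9, below all 7 other arrays.

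The largest difference outside the receptor families belonged to Pcdh10, a protocadherin of the list of axon sorting genes linked to activity. It read 12.2, 10.7, 11.5 and 10.5 after smoke and 10.4, 10.3, 9.82 and 10.3 after vehicle. All smoke arrays were above all vehicle arrays, with replicates 1 and 3 well above 2 and 4, and the difference of 1.04 ± 0.33 did not pass (adjusted p = 0.693). Of the 17 measured genes of that list, 2 were higher and none lower at the unadjusted p, beside 2.63% and 2.17% of all genes. Their median was -0.03.

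Of 17 genes of the transduction machinery none passed the unadjusted threshold, a count that cannot be told from the 2.63% of all genes past it upward and 2.17% downward. Their differences ran from -0.18 to 0.34 with a median of 0.01. Adcy3, the cyclase, differed by 0.01 ± 0.09, the channel subunit Cnga2 by -0.06 ± 0.10 and the G protein subunit Gnal by -0.15 ± 0.10. These transcripts lie near the top of the scale. Of 18 receptor trafficking and receptor choice genes none passed the unadjusted threshold either, and the median was -0.05. Of 17 presynaptic genes 1 was lower, Stx1a, which encodes syntaxin 1A, at 10.1, 10.0, 10.1 and 10.3 against 10.4, 10.3, 10.5 and 10.6 (-0.34 ± 0.10, adjusted p = 0.663).

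In each of the stress and injury lists, at most 1 member passed the unadjusted threshold. With 2.63% of all genes past it upward and 2.17% downward, lists of this size hold too few genes to tell such counts from that background. Of 24 immediate early genes 1 was higher at the unadjusted p, the stress-responsive factor Atf3 at 0.47 ± 0.16 (adjusted p = 0.833), and Fos differed by 0.16 ± 0.17. Of 8 listed targets of the aryl hydrocarbon receptor, the sensor of polycyclic aromatic hydrocarbons, only Nqo1 was higher, which is also an NRF2 target. Cyp1a1 and Cyp1b1, the classic targets, lay at or below the vomeronasal level on all 8 arrays, so no difference can be read for them. None of 14 genes of the unfolded protein and integrated stress response, none of 9 heat shock genes and none of 18 inflammation genes passed the unadjusted threshold in either direction, with medians of 0.01, 0.07 and -0.05. Of 10 p53 targets 1 was higher, Cdkn1a at 0.30 ± 0.14 (adjusted p = 0.999). Of 17 genes of immature neurons 1 was higher, Gap43, a growth cone protein gene, at 10.1, 10.4, 10.3 and 10.2 against 10.0, 9.50, 9.81 and 9.64 (0.51 ± 0.15, adjusted p = 0.592). Among 19 immune cell genes 1 was lower, the antigen-presentation gene H2-Ab1 at -0.63 ± 0.22 (adjusted p = 0.864).

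Large housekeeping groups had medians close to 0. The 61 cytosolic ribosomal protein genes had a median of 0.07 with 45 above 0, the 38 genes of respiratory complex I a median of 0.04 with 28 above 0, and the 47 of complexes II to V a median of 0.07 with 36 above 0. Of 39 genes with proteasome subunit symbols 34 were above 0 (median 0.08). Their only member past the unadjusted threshold was Psmc3ip, which is named for a proteasome subunit but is known as a recombination cofactor. The 90 potassium channel genes had a median of 0.03, with 2 higher and 3 lower at the unadjusted p. These counts cannot be told from the 2.63% and 2.17% of all genes.

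Sustentacular cells are the supporting cells that surround olfactory neurons and carry much of the tissue's xenobiotic metabolism. Their transcripts were present in the GFP+ sort and were higher in smoke replicates 2 and 4. Mean values of 15 of their markers were 9.97, 10.6, 10.1 and 10.9 on the smoke arrays and 9.84, 9.93, 10.1 and 10.2 on the vehicle arrays, and the log2 of their summed signal ran from 16.5 to 17.6 and from 16.3 to 16.8. Only Hes1 lay at or below the vomeronasal level on every array. The cytochrome P450 gene Cyp2a5 read 14.4, 15.2, 14.5 and 15.6 against 14.3, 14.2, 14.5 and 14.6. Cbr2, a carbonyl reductase gene, read 14.2, 14.7, 14.4 and 15.5 against 13.8, 13.9, 14.1 and 14.4. All 15 differences were above 0, with a median of 0.37. Upward, 6 of the 15 passed the unadjusted threshold, beside 2.63% of all genes, yet for none were the groups separate. Without smoke replicates 2 and 4 the median was 0.03, and from those 2 smoke arrays alone it was 0.78.

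The receptor rises were as large without these 2 arrays. For the 18 receptors that rose, the median difference was 2.23 with all 4 smoke arrays, 2.41 from smoke replicates 1 and 3 alone and 2.06 from replicates 2 and 4 alone. The sign was the same in all 18, which was fixed in advance because their smoke and vehicle arrays did not overlap. These receptors were also selected with the 2 arrays included. With the mean of the sustentacular markers as a covariate in a fit of the 8 GFP+ arrays the median was 2.23. Against the vehicle mean, the median rise was 1.91, 2.19, 2.69 and 1.79 on the 4 smoke arrays. Calls were fewer with 2 smoke arrays: 7 of the 21 passed, those of Olfr1278, Olfr736, Olfr750, Olfr878, Olfr1313, Olfr484 and Gm3411. With the covariate 2 of the 21 did, beside 13 in a fit of the GFP+ arrays alone. Differences of Taar7d and Taar7f were 1.29 and 1.27 without the 2 arrays.

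Genes outside the receptor families differed in how far they followed that signal. Without smoke replicates 2 and 4, Pir differed by 0.95, Pgd by 0.68, S100a5 by 0.67 and Gm3411 by 0.92, each at least as much as with them. For Pcdh10 the difference was 1.64 without them. Gstm1, a glutathione transferase on the NRF2 list, read 13.9, 14.4, 14.2 and 15.1 after smoke and 13.7, 13.7, 13.9 and 14.0 after vehicle, and its difference of 0.58 ± 0.21 dropped to 0.21 without them. The 26 NRF2 targets had a median of 0.08 without them. For the 21 glutathione transferases the median was 0.23 with and 0.16 without them. With all 4 smoke arrays, 4 of the 21 were higher at the unadjusted p, beside 2.63% of all genes. All 391 genes higher and all 332 lower at the unadjusted p outside the families kept their sign without the 2 arrays, and 67 and 45 of them shrank to under 2/3 of their size. These genes were selected with the 2 arrays included, so kept signs are a description.

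**Figure D5:**
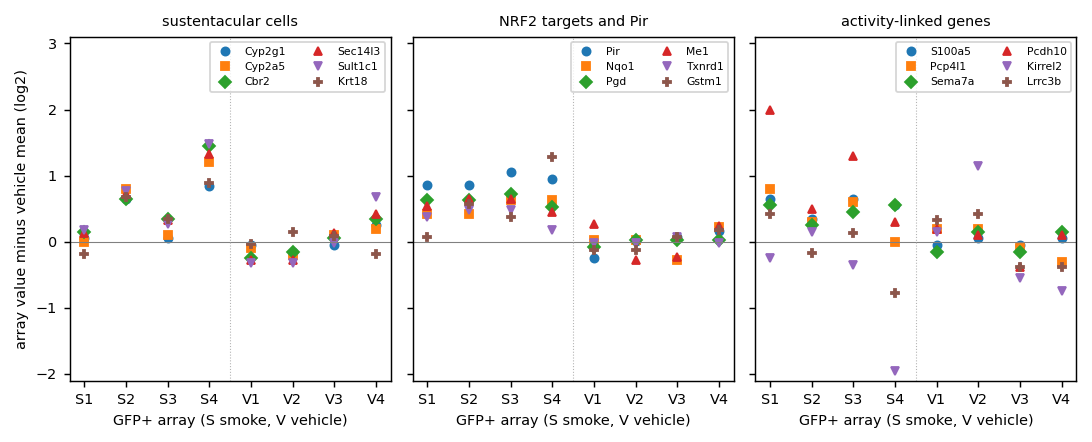
Value of each GFP+ array minus the gene's vehicle mean (y axis, log2) for 6 sustentacular markers, for Pir with 5 NRF2 targets, and for 6 activity-linked genes. S1 to S4 are smoke replicates and V1 to V4 vehicle replicates. The sustentacular markers peak in S2 and S4, Pir and Pgd are raised by a similar amount in all 4 smoke arrays, and Pcdh10 is highest in S1 and S3.

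For most receptors that rose, the smoke effect was larger in GFP+ than in GFP- cells, while Pir rose in both fractions. Of the 18 receptors that rose, 16 had a GFP- difference below 0, among them Olfr484 at -1.44, Olfr16 at -1.22 and Taar2 at -1.07. The test of the difference between the fractions passed for 15 of the 21 genes, beside 0.174% of all genes. That test contains the contrast by which these genes were selected. For Pir the GFP- difference was 0.88 (adjusted p = 0.0152), and the effects in the fractions differed by 0.06 (adjusted p = 0.987). Gm3411 differed by 0.06 in GFP- cells, and the difference between the fractions did not pass (adjusted p = 0.276). Olfr1152 was lower in GFP- cells too, by -1.56 (adjusted p = 0.112).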

How the data were processed

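RNA of GFP+ and GFP- cells sorted from pooled olfactory mucosa was measured on Clariom S arrays from 50 to 100 ng of total RNA, per the labels' protocols. The values used are the authors' deposited log2 values, 1 per probe set and array. The submitters' processing notes name Affymetrix Expression Console; how it summarised and normalized the probes was not stated in the labels, and the values were not normalized again. Of 28846 probe sets, 19572 had 1 gene symbol, 2634 had none and 6640 were controls. For the 55 genes with several, the probe set of highest mean over 16 arrays was kept, which left 19505 genes.

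All 16 arrays were fitted as 4 group means in limma 3.58.1 (R 4.3.3) with eBayes, and p-values were adjusted over all genes by Benjamini-Hochberg, with a threshold of 0.05. The spread behind the p-values is that of arrays within all 4 groups, GFP+ and GFP- together, from 4 pools per exposure. It is not the spread of the GFP+ arrays alone. The number of arrays limits the precision. A pool's GFP+ and GFP- arrays share mice, which an alternative modelled.

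The genes and lists were chosen with earlier results of these data known. Named are S100a5 and Omp, all genes past the threshold, the 20 receptors and 15 other genes of smallest p each way, and for each list 2 genes; not all are printed. Other genes of lists and runs stand in as described members. The planned comparison with each receptor's closest relative by protein identity was not made. Promoters and gene order are from RefSeq (GRCm38.p6). The fit was tested on simulated data.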

Additional observations from a re-analysis of the deposited data

Results flagged for a closer look

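For 15 of the 21 genes the smoke effect was unequal in GFP+ and GFP- cells by the interaction in limma, which includes the contrast that selected them. The effect in GFP+ minus that in GFP- cells was 4.42 for Olfr1278 (adjusted p = 0.00029), 4.18 for Olfr750 and 3.78 for Olfr736 (both 0.000373). It was 3.59 for Olfr484 (0.000589), 3.58 for Taar2 (0.00546), 3.17 for Olfr878 (0.00366) and 3.12 for Olfr1277 (0.0318). It was 3.03 for Olfr153 (0.0309), 2.88 for Olfr1313 (0.0131), 2.86 for Olfr16 (0.00546) and 2.84 for Olfr923 (0.00127). It was 2.30 for Taar7d (0.00482), 2.18 for Taar7f (0.00127), 1.88 for Olfr1087 (0.00977) and 1.74 for Olfr1307 (0.0132).

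In 5 of 144 groups of 4 arrays, 1 array stood far from the others by Dixon's criterion, which chance alone meets in about 1 group in 20. Tmprss12 read 5.19 in vehicle replicate 3 and 5.34 to 5.36 on the other vehicle arrays. In smoke replicate 1, 2810032G03Rik read 6.73 beside 6.2 to 6.29, and Gzmk read 4.00 beside 3.63 to 3.68. Stx1a read 10.3 in smoke replicate 4 beside 10.0 to 10.1. The mean of the endothelial and stromal list was 5.83 in vehicle replicate 1 beside 6.15 to 6.18.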

How the results depend on the processing

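The reported counts are 20 genes higher and 1 lower, with 15 and 1 among odorant receptors and 2 and 0 outside the receptor families. With 1 GFP+ array left out at a time, genes higher ranged from 13 to 27 and lower from 0 to 2, odorant receptors higher from 9 to 22 and lower from 0 to 2, genes outside the families higher from 1 to 3 and lower from 0 to 1, and genes whose effect differed between the fractions from 13 to 16. Without smoke replicates 2 and 4, 7 genes were higher, 6 odorant receptors and 1 gene outside the families, and the difference between fractions passed for 8. The sustentacular covariate in the 8 GFP+ arrays left 2 higher, both odorant receptors, 0 lower, and 0 outside the families higher. A trended and robust eBayes gave 3 lower, 2 of them odorant receptors and 1 outside the families, and 4 higher outside the families. Quantile normalization gave 2 lower, 0 odorant receptors and 2 outside the families, and an adjusted p of 0.10 gave 4 lower, 2 of each. Residuals of same-numbered smoke and vehicle GFP+ arrays correlated at 0.139, 0.0767, 0.151 and 0.198. A pairing was to be taken only where every pair exceeded 0.1, which 1 of the 4 did not, and the labels name no shared litter, batch or day. All 8 arrays correlated best with their own number, a hint from the data that the numbers may mark something shared. With a replicate block, 16 arrays gave 26 higher and 1 lower (0 odorant receptors and 1 gene outside the families), and 19 of the 21 genes passed. Under that block the adjusted p was 0.0621 for Olfr1152 and 0.0765 for Olfr16, while Olfr769 (0.0298), Olfr875 (0.0374) and Olfr1495 (0.0364) passed. The GFP+ arrays alone with that block gave 15 higher, 0 lower, 0 odorant receptors lower and 0 outside the families higher. Over 22 alternatives, none of 1163 differences of named genes reversed, 90 lost their call and 13 gained one. Of 1425 medians of lists and runs, 29 moved by more than the spread. Low signal limits Olfr1277, Olfr1278 and the genes at the vomeronasal level.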
